A study of Mus musculus with 58 samples.

Results

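Prefrontal cortex of HT mice that had received lithium was compared with that of WT mice that had received vehicle, by bulk RNA sequencing. The comparison took 20 of the 58 libraries of a study of Kmt5b genotype and drug treatment in C57BL/6J mice, chosen by their labels alone: 10 labelled HT (heterozygous for Kmt5b) with lithium and 10 labelled WT with vehicle, each with 5 females and 5 males. It asks what still set lithium-treated HT cortex apart from the untreated wild type. Lithium or vehicle reached the pups through maternal milk for 3 weeks, from postnatal day 3 to 24, with the cortex collected on postnatal day 25. Other conditions are given beside it where they bear on a gene, namely WT mice with lithium (8 libraries) and HT mice with vehicle (10 libraries), whereas fluoxetine libraries entered only the estimate of the spread. Genotype and drug both differ between the groups compared, so their parts in a difference cannot be told apart from these 20 libraries.

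Several features limit the groups as a model. The labels do not state the kind of Kmt5b allele, the dose of lithium or the litter of a mouse, nor whether each library is 1 animal. Littermates share a drug that comes with the milk, so p-values measure the spread between these libraries and may be smaller than with litter in the model. In bulk tissue, fewer cells of a type and less RNA per cell cannot be told apart.

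As background, KMT5B is a histone methyltransferase that adds methyl groups to lysine 20 of histone H4, a modification tied to compact chromatin, and loss of 1 human copy is known from neurodevelopmental disorders. Lithium is a mood stabiliser. It inhibits glycogen synthase kinase 3, a kinase that marks beta-catenin for breakdown, and inositol monophosphatase, an enzyme that recycles inositol for signalling.

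Values are the authors' normalised read counts per gene. The 20 libraries held an estimated 23.5 to 31.5 M reads, and limma was run on log2(count + 1) for the 16669 genes that averaged 10 or more. A gene is said to have risen or fallen when its Benjamini-Hochberg adjusted p over all genes tested was under 0.05. Differences are HT lithium minus WT vehicle and average the sexes, so a positive value means higher in HT lithium cortex. On that scale the changes of genes with low counts are understated.

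Kmt5b, on chromosome 19 from 3767421 to 3818303, was read first as a check on the genotype labels. Its normalised count was 1573 to 1845 with a median of 1760 in HT lithium libraries, against 1428 to 1797 with a median of 1587 in WT vehicle libraries. The ranges overlapped, and the HT lithium median was the higher one, so the genotype labels found no support in a lower Kmt5b level. A log2 difference of 0.11 (SE 0.0427) resulted, which did not pass limma's test (adjusted p = 0.0894), while a two-sided permutation test within sex on the same 20 libraries, unadjusted, gave p = 0.00819. The call changed without WT vehicle male 3 (0.13, adjusted p = 0.0419) and with the olfactory bulb level in the model (0.10, adjusted p = 0.0397), and the difference was 0.058 with the exon length slope in the model. Directions drawn from the genotype therefore rest on the labels.

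As a check of the tissue, 22 markers of cortical excitatory neurons summed to 185500 to 244300 normalised counts in HT lithium and 195000 to 246900 in WT vehicle, and no marker of any cell type list was at 0 in either group. The level of 4 olfactory bulb markers (Doc2g, Cdhr1, Tbx21 and Eomes) was uneven: it averaged 7.72 ± 2.27 on the log2 scale in HT lithium libraries and 7.38 ± 2.24 in WT vehicle libraries (n = 10 per group, SD; permutation p = 0.729). It lay under 6 in 3 HT lithium libraries (female 4, male 1 and male 3) and in 3 WT vehicle libraries (female 3, male 1 and male 5). The study has 10 such low-bulb libraries in all, and the counts of gene lists are also given without them where that moves a count by over 1.5 times, or to or from 0. The lowest level was 7.44 in HT vehicle and 7.08 in WT lithium, so comparisons with those groups are uneven in this level. The median of 15 olfactory bulb markers was -0.86 in HT lithium minus HT vehicle and 0.98 in HT vehicle minus WT vehicle. It was -0.44 in HT lithium minus WT lithium, 0.61 in WT lithium minus WT vehicle and 0.090 in HT lithium minus WT vehicle. The slope of expression on exon length averaged 0.011 ± 0.0168 in HT lithium libraries and -0.0137 ± 0.0419 in WT vehicle libraries (n = 10 per group, SD; permutation p = 0.0764, or 0.229 adjusted over the 6 library measures compared), and list counts are likewise given with that slope in the model where they move as far. For lists with few calls, the range over all settings covers these fits, the other settings tried and each single library left out.

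HT lithium cortex differed from WT vehicle cortex in 1357 of the 16669 genes, 8.14% of those tested: 712 genes (4.27%) rose and 645 (3.87%) fell. Most changes were small. A fold under 1.2 was found for 817 of the changed genes and a fold over 1.5 for 130, of which 102 rose and 28 fell. The 20 libraries did not overlap at all between the groups for 60 genes, 0.36% of those tested, 40 of them higher and 20 lower in HT lithium. Of the changed genes, 141 were predicted genes or pseudogenes, which are counted and, apart from the Pisd copies, not named. The count was 674 without the low-bulb libraries of all groups, and it was 892 without WT vehicle female 4, the library whose removal moved it most.

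**Figure D1:**
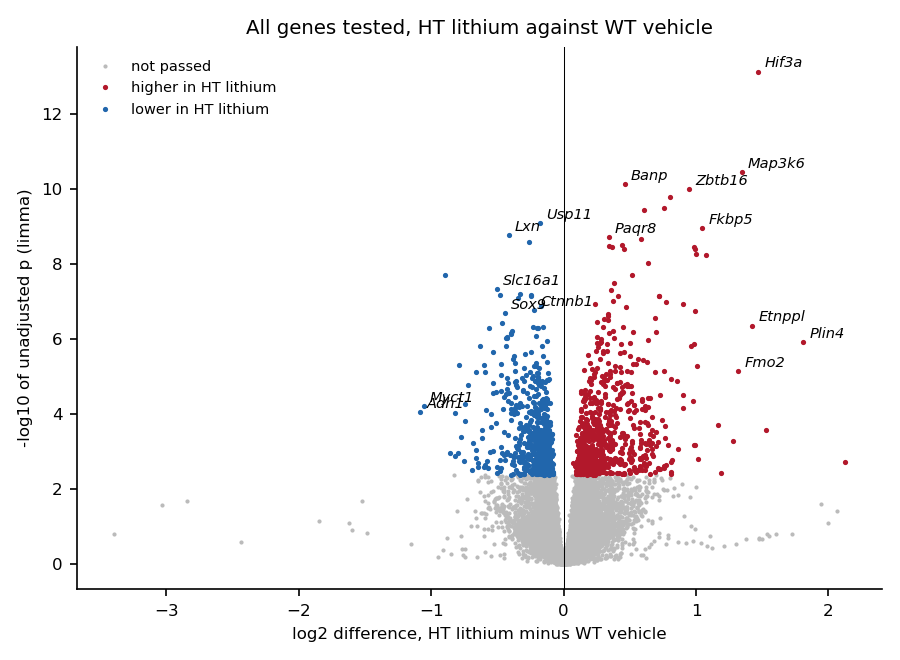
Each point is 1 of the 16669 genes tested, with its log2 difference between HT lithium and WT vehicle (x axis) and -log10 of limma's unadjusted p (y axis); the 712 genes that rose are red and the 645 that fell are blue. The genes that rose reach log2 differences of 1.47 (Hif3a) and 1.81 (Plin4), while the named genes that fell most lie near -1.08 (Adh1) and -1.05 (Myct1).

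No gene passed the test for a difference between the sexes in this comparison (limma, 656 genes at an unadjusted p under 0.05, smallest adjusted p = 0.999). Taken alone, the contrast of females passed 81 genes and that of males 469.

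Genes known to respond to glucocorticoids, the adrenal stress hormones that act through a nuclear receptor, were among the strongest rises. All gene lists and motifs here were chosen with earlier results of these data known, so their counts, medians and sums are no independent evidence. Of 22 tested members of the glucocorticoid list, 10 rose and 1 fell (50% passed, against 8.14% of all genes tested). Of these 22, 15 lay above 0 and 7 below. The list's median difference was 0.13 on the log2 scale, against -0.0016 over all genes tested. Their summed normalised count was 41370 to 46660 in HT lithium libraries and 35750 to 41310 in WT vehicle libraries, so the groups did not overlap. The fall was that of Pdk4 (-0.27), a kinase that blocks pyruvate dehydrogenase. It did not pass without the low-bulb libraries, with the exon length slope in the model, or without HT lithium female 2 or male 2 or WT vehicle female 5 or male 1. Nr3c1, the gene of the receptor itself, is a member and did not pass (-0.10, SE 0.0566, adjusted p = 0.283).

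Hif3a, which encodes a hypoxia-inducible factor subunit that can oppose the others of its family, had the smallest p of all genes. It lies on chromosome 7 from 17031507 to 17062427. Its normalised count was 309.5 to 473 (median 396) in the 10 HT lithium libraries and 88.7 to 227 (median 147) in the 10 WT vehicle libraries. Every HT lithium library lay above every WT vehicle library. The log2 difference was 1.47 (SE 0.145, a fold of 2.77; limma, adjusted p = 1.22e-09).

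Map3k6, a kinase of the stress-activated MAP kinase cascades, had 115 to 199 (median 153) normalised counts in HT lithium libraries, against 48.3 to 91.8 (median 60.5) in WT vehicle libraries. Its groups did not overlap either, and it rose by 1.35 on the log2 scale (SE 0.160, adjusted p = 2.89e-07). Zbtb16, a zinc finger transcription factor, reached 1220 to 1629 (median 1282) with lithium in HT, against 491 to 867 (median 739) in WT vehicle. That too left a gap between the groups, at a log2 difference of 0.95 (SE 0.117, adjusted p = 4.21e-07).

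Fkbp5, a co-chaperone that dampens the glucocorticoid receptor, ranged from 1054 to 1647 (median 1294) in HT lithium libraries and from 433 to 1114 (median 596) in WT vehicle libraries. A single WT vehicle library, male 3, reached into the HT lithium range. Fkbp5 rose by 1.05 (SE 0.141, adjusted p = 1.98e-06). Sult1a1, a sulfotransferase of phenols and catechols, had 237 to 435 (median 373) in HT lithium and 138 to 218 (median 167) in WT vehicle, with no overlap and a log2 difference of 0.99 (SE 0.139, adjusted p = 3.47e-06). The largest difference of any named gene was that of Plin4, a perilipin that coats lipid droplets: 1.81 (SE 0.329, adjusted p = 2.54e-04). It was a low-count gene, with 16.3 to 63.8 (median 36.5) in HT lithium and 2.93 to 25.9 (median 7.89) in WT vehicle, and its groups overlapped.

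**Figure D2:**
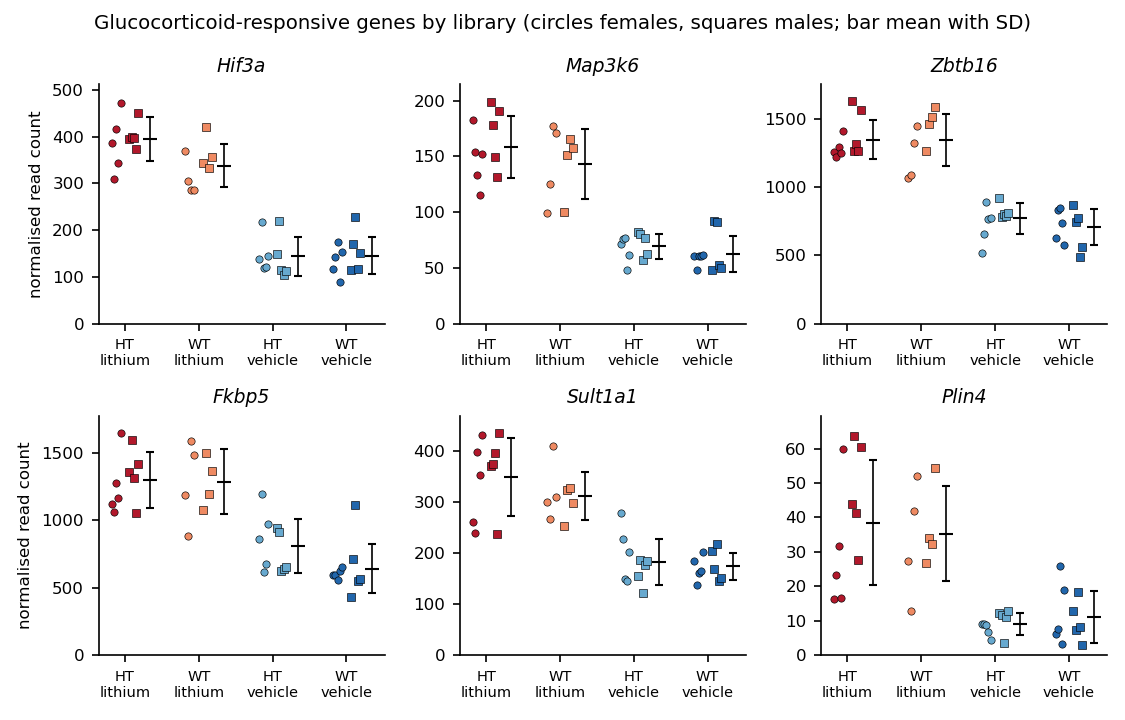
Normalised read count (y axis, from 0) of 6 glucocorticoid-responsive genes in each library of HT lithium, WT lithium, HT vehicle and WT vehicle; circles are females, squares males, and the bar beside each group is its mean with SD. The means of both lithium groups lie above those of both vehicle groups, with Hif3a at 394 ± 47.1 in HT lithium and 145 ± 39.5 in WT vehicle.

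The same 6 genes are given for the other groups, which share libraries with the comparison above. In HT lithium minus HT vehicle, where 2345 genes passed (14.1% of those tested, with 7.46% higher), the log2 differences of Hif3a, Map3k6, Zbtb16, Fkbp5, Sult1a1 and Plin4 were 1.49, 1.18, 0.82, 0.70, 0.94 and 1.93, and all 6 passed. In WT lithium minus WT vehicle, where 556 genes passed (3.34%), they were 1.25, 1.19, 0.94, 1.02, 0.84 and 1.73, and all 6 passed. In HT lithium minus WT lithium, where 10 genes passed (0.06%, with 0.048% higher and 0.012% lower), they were 0.22, 0.16, 0.0098, 0.026, 0.15 and 0.08, and none of the 6 passed, with adjusted p from 0.632 for Hif3a to 0.987 for Zbtb16. In HT vehicle minus WT vehicle, where 8 genes passed (0.048%, with 0.03% higher and 0.018% lower), they lay between -0.11 for Plin4 and 0.34 for Fkbp5.

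A binding motif of the glucocorticoid receptor, spelled GNACA, any 3 bases, TGTNC and searched on both strands, was looked for in the 250 bases before the RefSeq gene starts (GRCm38.p6). It was found in 3 of the 20 list members with such a window (15%) and in 42 of all 12099 tested genes with one (0.347%). The members were Map3k6, which rose, and Sgk1 and Mt1, which did not pass. Of the 9 members that rose and had a window, 1 held it. The window of Map3k6 is shown because it is the only one among those that rose. It is chr4:133240568-133240817 on the + strand, and capitals mark the match, which starts 181 bases before the gene start.
Map3k6: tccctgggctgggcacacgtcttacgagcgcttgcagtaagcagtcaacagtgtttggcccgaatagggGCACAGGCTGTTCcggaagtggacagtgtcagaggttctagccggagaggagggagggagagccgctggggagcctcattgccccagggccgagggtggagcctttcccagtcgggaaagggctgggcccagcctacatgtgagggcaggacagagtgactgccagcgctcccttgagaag

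Outside that list, several of the strongest rises were in genes of metabolism and signalling. Pfkfb3, which makes the main activator of glycolysis, had 1106 to 1342 (median 1162) in HT lithium and 656 to 997 (median 916) in WT vehicle, and rose by 0.44 (SE 0.0613, adjusted p = 3.47e-06) without overlap. Gpt2, the mitochondrial alanine aminotransferase, rose by 0.37 and Castor2, of the family of arginine sensors upstream of mTORC1, by 0.34 (adjusted p = 3.47e-06 for both). Paqr8, a membrane progestin receptor, was raised by 0.34 and its relative Paqr5 by 1.0, both without overlap. Il1r1, the receptor of interleukin 1, averaged 222 ± 27.0 in HT lithium and 132 ± 24.4 in WT vehicle (n = 10 per group, SD), a rise of 0.76 with no overlap.

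Banp, a nuclear protein that binds unmethylated CpG motifs, had the smallest p outside the glucocorticoid list. It averaged 977 ± 74.9 in HT lithium and 710.1 ± 70.0 in WT vehicle, with a log2 difference of 0.46 (SE 0.0564, adjusted p = 3.95e-07) and a slight overlap of the groups. Adam8, a metalloprotease, rose by 0.81, Dnhd1, a protein with a dynein heavy chain domain, by 0.61, Traip, a ubiquitin ligase of replication stress, by 0.59, and Plekhg4, a guanine nucleotide exchange factor, by 1.0. Pkp2, a desmosomal plakophilin, rose by 1.07 and Plcxd2 by 0.38. None of these 6 overlapped between the groups. Among the largest rises were also Etnppl, an astrocyte enzyme that breaks down phosphoethanolamine (1.42, SE 0.245), and Fmo2, a flavin monooxygenase (1.32, SE 0.263). Etnppl had 329 to 985 in HT lithium and 88.2 to 291 in WT vehicle, with no overlap.

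The falls were smaller. Usp11, a deubiquitinating enzyme, had the smallest p among them, with 2828 to 3035 (median 2917) in HT lithium and 3059 to 3434 (median 3356) in WT vehicle. No library overlapped, although the log2 difference was only -0.18 (SE 0.0241, adjusted p = 1.70e-06). Lxn, an inhibitor of carboxypeptidases, fell by 0.41, Nim1k, a kinase related to AMPK, by 0.26, Pnck, a calcium/calmodulin-dependent kinase, by 0.33, and Vgll4, a cofactor of TEAD transcription factors, by 0.25. Slc16a1, the monocarboxylate transporter that moves lactate and ketone bodies, averaged 1424 ± 150.3 in HT lithium and 2018 ± 198 in WT vehicle. Its groups did not overlap, and it fell by 0.50 (SE 0.0787, adjusted p = 2.98e-05).

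Other genes that fell without overlap were Nectin3 (-0.43), a cell adhesion molecule, Slitrk1 (-0.29), a synaptic adhesion protein, Gfpt2 (-0.40), which starts hexosamine synthesis, Fto (-0.13), an RNA demethylase, Lgmn (-0.15), a lysosomal protease, and Aco1 (-0.12), a cytosolic aconitase that also binds iron-responsive RNA elements. Lmcd1 (-0.42), Bsdc1 (-0.12) and Nelfcd (-0.16), a subunit of the complex that pauses RNA polymerase II, did so too. The lowest log2 differences among the named genes were those of Adh1 (-1.08), an alcohol dehydrogenase, and Myct1 (-1.05). Both were near the lower limit of counts, with Adh1 at 10.8 ± 4.88 in HT lithium and 23.1 ± 8.48 in WT vehicle. Zfp316, Samd1, Nub1, Zswim1, Meaf6 and Evi2a completed the 15 falls of smallest p, at log2 differences from -0.56 for Evi2a to -0.15 for Meaf6.

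Genes of cholesterol synthesis and uptake formed the clearest group of falls. The pathway builds cholesterol from acetyl-CoA in every cell and is switched on by the transcription factor SREBP2, and the developing brain makes its own cholesterol. All 26 members of the list were tested, 16 fell, none rose, and none of the 26 had a difference above 0. The share that passed was 61.5%, against 8.14% of all genes tested. Their median difference was -0.17, against -0.0016 over all genes tested. Their summed normalised count was 45810 to 53980 in HT lithium and 52950 to 59730 in WT vehicle. The number fallen was 11 without the low-bulb libraries, 8 with the exon length slope in the model, 10 without HT lithium female 3, and 9 without HT lithium male 5.

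Sqle, which oxidises squalene at a rate-limiting step, had 1698 to 1979 (median 1903) in HT lithium and 2024 to 2458 (median 2199) in WT vehicle. Hmgcs1, the synthase that feeds HMG-CoA into the pathway, had 8986 to 10780 (median 10100) in HT lithium and 11000 to 12830 (median 11530) in WT vehicle. For these genes every HT lithium library lay below every WT vehicle library, at log2 differences of -0.25 (SE 0.0463, adjusted p = 3.93e-04) and -0.23 (SE 0.0495, adjusted p = 0.00230). Insig1, which holds SREBP2 in the endoplasmic reticulum, fell by 0.28, and Fdft1, the squalene synthase, by 0.21. Stard4, a carrier of cholesterol within the cell, fell by 0.21.

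**Figure D3:**
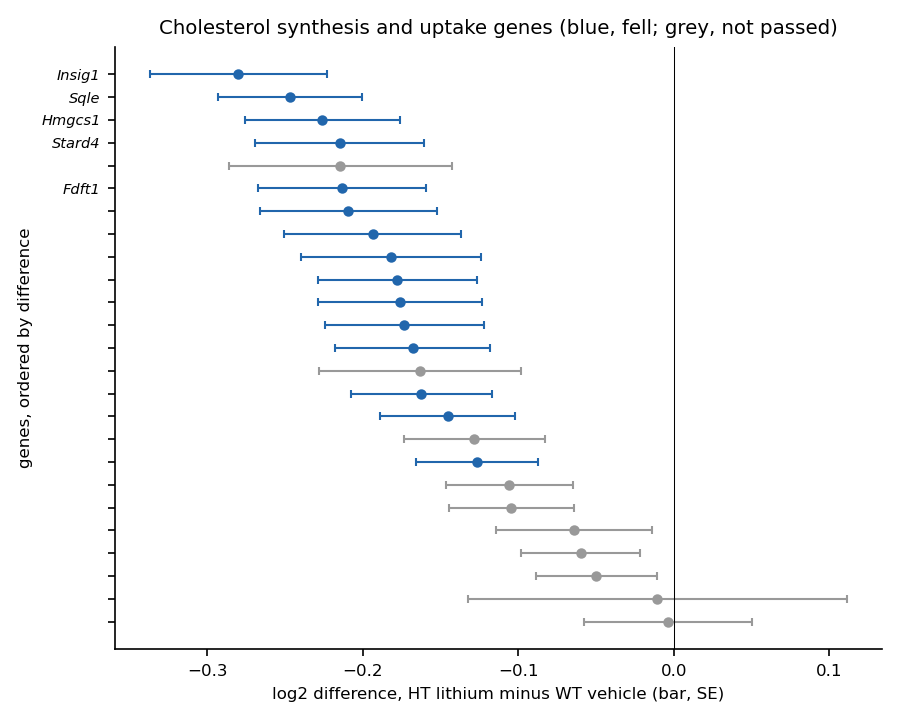
Log2 difference between HT lithium and WT vehicle (x axis, with SE) of 25 of the 26 genes of cholesterol synthesis and uptake, ordered by size, with the names of those given in the text; blue marks the 15 of them that fell and grey those that did not pass. Insig1 lies lowest of these at -0.28, and none lies above 0.

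The list's counts in the other comparisons, which share libraries with this one, were 13 fallen in HT lithium against HT vehicle (where 6.61% of all genes fell), 3 in WT lithium against WT vehicle (1.39%), and 0 in HT lithium against WT lithium and in HT vehicle against WT vehicle. The median differences were -0.16, -0.085, -0.066 and -0.005, in that order. A sterol regulatory element, spelled TCAC, any 1 base, CCAC and searched on both strands of the 250 bases before the RefSeq gene starts (GRCm38.p6), was found in 1 of the 18 members with a window (5.56%) and in 147 of 12099 tested genes (1.21%). That member was Hmgcs1, whose window is shown for that reason (chr13:119690101-119690350, + strand, match in capitals).
Hmgcs1: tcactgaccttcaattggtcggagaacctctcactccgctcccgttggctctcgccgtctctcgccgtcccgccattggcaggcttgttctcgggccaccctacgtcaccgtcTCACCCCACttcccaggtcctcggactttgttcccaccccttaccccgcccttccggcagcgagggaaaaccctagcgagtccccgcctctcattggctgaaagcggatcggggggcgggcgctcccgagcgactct

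Chaperones of the endoplasmic reticulum (ER), which fold secreted proteins and are induced when unfolded proteins build up, lay mostly above 0. Of 24 members, 6 rose and 1 fell (29.2% passed, against 8.14% of all genes tested). In all, 23 lay above 0, and the median difference was 0.087. The chaperone Hspa5, also called BiP, had 6831 to 9532 (median 8310) in HT lithium and 5616 to 8004 (median 6403) in WT vehicle. These ranges overlapped, and Hspa5 rose by 0.32 (SE 0.0757, adjusted p = 0.00429). Its co-chaperones Dnajc3 and Dnajb11 rose by 0.26 and 0.13, the secreted factor Manf by 0.22, and Herpud1, of the degradation machinery, by 0.16. Canx, the lectin chaperone calnexin, fell by 0.12 (SE 0.0313, adjusted p = 0.0149). Without the low-bulb libraries 2 rose and 0 fell. In WT lithium minus WT vehicle the median was 0.20 with 13 risen (1.95% of all genes rose there), and Hspa5 stood at 0.50.

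The ER stress response element, spelled CCAAT, any 9 bases, CCACG on either strand, was present in the 250-base window of 9 of the 20 members that had one (45.0%) and of 19 of the 12099 tested genes (0.157%). Of the 5 members that rose and had a window, 2 held it, and so did Canx, which fell. Their 3 windows are printed because the same element stood before genes that moved in opposite directions. They are chr2:34771840-34772089 (+ strand) for Hspa5, chr14:118937682-118937931 (+ strand) for Dnajc3 and chr11:50325674-50325923 (- strand) for Canx, from RefSeq on GRCm38.p6, with the element in capitals at 65, 105 and 145 bases before the start.
Hspa5: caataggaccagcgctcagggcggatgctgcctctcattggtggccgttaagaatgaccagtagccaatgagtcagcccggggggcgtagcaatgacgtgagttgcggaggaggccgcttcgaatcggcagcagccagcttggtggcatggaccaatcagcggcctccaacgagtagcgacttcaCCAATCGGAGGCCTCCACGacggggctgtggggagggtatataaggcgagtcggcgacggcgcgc
Dnajc3: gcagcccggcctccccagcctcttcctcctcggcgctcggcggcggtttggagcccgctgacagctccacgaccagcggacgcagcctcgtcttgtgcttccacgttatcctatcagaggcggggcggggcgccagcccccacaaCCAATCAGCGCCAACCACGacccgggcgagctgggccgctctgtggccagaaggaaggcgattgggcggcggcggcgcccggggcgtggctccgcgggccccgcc
Canx: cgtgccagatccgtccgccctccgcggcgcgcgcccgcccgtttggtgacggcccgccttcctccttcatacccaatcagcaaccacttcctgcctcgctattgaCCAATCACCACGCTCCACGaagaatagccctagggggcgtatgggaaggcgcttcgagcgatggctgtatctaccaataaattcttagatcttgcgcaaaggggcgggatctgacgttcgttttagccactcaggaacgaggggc

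Among the direct targets of lithium and the inositol cycle, 14 genes were tested, of which 2 rose and 1 fell, with a median of -0.0051. The share that passed was 21.4%, against 8.14% of all genes tested. Slc5a3, the sodium-dependent transporter that brings myo-inositol into cells, had 589 to 1021 (median 858) in HT lithium and 523 to 830.1 (median 631) in WT vehicle. It rose by 0.34 (SE 0.0659, adjusted p = 6.51e-04). Impa1, the inositol monophosphatase that lithium inhibits, rose by 0.12 (adjusted p = 0.0464), and Bpnt1, a lithium-sensitive phosphatase of nucleotides, fell by 0.10 (adjusted p = 0.0443). Both lie close to the threshold, and neither passed without the low-bulb libraries. Over all settings 1 to 2 of the list rose and 0 to 2 fell, with 2 and 0 under the exon length slope. Gsk3b, the kinase gene, did not pass (0.054, SE 0.0401).

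Ctnnb1, which encodes beta-catenin, had 14790 to 16730 (median 15300) in HT lithium and 16900 to 20950 (median 18200) in WT vehicle. The groups did not overlap, and its RNA fell by 0.23 (SE 0.0372, adjusted p = 6.57e-05). Wnt signalling is the pathway in which beta-catenin acts. Of 23 genes of Wnt signalling and its feedback, 2 fell and none rose (8.7% passed, against 8.14% of all genes tested), with a median of -0.055. The other was Nkd1, an inhibitor induced by the pathway (-0.21, adjusted p = 0.0123), which did not pass without the low-bulb libraries. The number fallen was 1 with the exon length slope and 4 with the olfactory bulb level in the model.

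Insulin, IGF and FOXO genes had 6 members risen and 1 fallen of 24 (29.2% passed, against 8.14% of all genes tested, median 0.074). Igfbp3, which binds and carries insulin-like growth factors, had 661 to 866 (median 784) in HT lithium and 447 to 772 (median 521) in WT vehicle, and rose by 0.51 (SE 0.0774, adjusted p = 1.34e-05). The receptor Igf1r rose by 0.23, the phosphoinositide 3-kinase subunit Pik3r1 by 0.16 and the transcription factor Klf15 by 0.27. Depp1, a FOXO target, fell by 0.75 (adjusted p = 0.0294). Without the low-bulb libraries 3 members rose and 0 fell, with the exon length slope 5 rose and 0 fell, and over all settings 0 to 2 fell.

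Of 18 p53 targets 5 rose and 0 fell (27.8% passed, against 8.14% of all genes tested, median 0.10). Fas, the death receptor, had 40.6 to 70.8 (median 54.7) in HT lithium and 19.5 to 42.3 (median 28.3) in WT vehicle, a rise of 0.86 (SE 0.178, adjusted p = 0.00126). Trp53inp1 rose by 0.48, whereas Mdm2, Ccng1 and Sesn1 rose by 0.12 to 0.14. The count was 3 without the low-bulb libraries, 2 with the exon length slope in the model, and 3 without HT lithium female 5 or without HT lithium male 5, and 1 fell without HT lithium female 2 or WT vehicle male 1. Of the 32 cell cycle genes none rose and 3 fell, namely Cdca3 (-0.72), Top2a (-0.64) and Mcm3 (-0.38), with a median of -0.20. The share that passed was 9.38%, near the 8.14% of all genes tested, and only 6 members had a mean of at least 100. Outside that list, Pclaf (-0.86) and Pbk (-0.82), which act in replication and mitosis, were among the largest falls. The number of cell cycle genes fallen was 1 without HT lithium female 3 or male 5 and 1 among genes with a mean of at least 100, and 1 rose without HT lithium female 1 or WT vehicle female 2, female 3 or male 1. The cell cycle list summed to 1767 to 2198 in HT lithium and 2020 to 2506 in WT vehicle.

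Immediate early genes, which neurons switch on within minutes of activity, moved both ways. Of 40 tested, 4 rose and 5 fell (22.5% passed, against 8.14% of all genes tested). A total of 29 lay below 0, and the median was -0.14. Maff, a small basic leucine zipper factor, had 39.4 to 69.8 (median 54.8) in HT lithium and 22.3 to 41.1 (median 30.3) in WT vehicle, and rose by 0.78 (SE 0.125, adjusted p = 4.57e-05). Dusp4, a MAP kinase phosphatase, rose by 0.53, Klf4 by 0.35 and Homer1, a postsynaptic scaffold, by 0.31. Egr4 had 493 to 999.8 in HT lithium and 895 to 1349 in WT vehicle, and fell by 0.53 (SE 0.151, adjusted p = 0.0206). Ier2 fell by 0.55 (SE 0.159, adjusted p = 0.0219). With the exon length slope in the model 3 rose and 0 fell, without the low-bulb libraries 2 rose and 3 fell, and with the compared groups fitted alone 3 rose and 11 fell. The count of falls was 1 without HT lithium male 4 or male 5, 2 without HT lithium female 3, 4 or 5 or WT vehicle female 5, male 2 or male 5, and 3 without WT vehicle female 1, 3 or 4 or male 3. Leaving out WT vehicle female 4 left 2 rises.

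Pisd-ps1 carried a genotype difference under either drug condition. It is a transcribed copy of Pisd, the mitochondrial phosphatidylserine decarboxylase, on chromosome 11 from 3125904 to 3131004. Its normalised count was 2011 to 2902 (median 2545) in HT lithium and 1058 to 1836 (median 1583) in WT vehicle. The groups did not overlap, and the gene rose by 0.72 (SE 0.114, adjusted p = 3.53e-05). HT vehicle libraries were at 2451 ± 275 (n = 10) and WT lithium libraries at 1112 ± 257 (n = 8). HT lithium minus HT vehicle was 0.022 (adjusted p = 0.919), and HT lithium minus WT lithium was 1.19 (adjusted p = 3.75e-09). The gene fell with lithium in WT, at -0.47 in WT lithium minus WT vehicle (adjusted p = 0.0174). A second copy, Pisd-ps2, rose by 0.42 (adjusted p = 0.00217), and Pisd itself stood at 0.092 (adjusted p = 0.142). Reads shared between these near-identical copies could have been divided among them by the authors' quantification, so the level of each copy is uncertain.

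HT vehicle against WT vehicle passed only 8 genes, which include Pisd-ps1 and 1 predicted gene, and the other 6 are followed here into HT lithium. The count was 1 when those groups were fitted alone. Slco1a4, an organic anion transporter of brain endothelium, had 1329 to 1602 (median 1403) in HT lithium and 1443 to 2097 (median 1664) in WT vehicle, and fell by 0.24 (adjusted p = 0.00440). Tmem28 rose by 0.28 (adjusted p = 2.54e-04) and P4ha3, a collagen prolyl hydroxylase, by 0.34 (adjusted p = 0.0174). In HT lithium minus HT vehicle these 3 stood at 0.10, 0.039 and -0.11, and none passed. In HT lithium minus WT lithium they stood at -0.11, 0.12 and 0.27, and none passed (limma, adjusted p = 0.539, 0.464 and 0.342). They were chosen for passing against the same WT vehicle libraries, so their difference between HT lithium and WT vehicle is no independent evidence. Without the low-bulb libraries Slco1a4 (-0.21, adjusted p = 0.0730) and P4ha3 (0.30, adjusted p = 0.116) did not pass against WT vehicle.

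Asah1, the acid ceramidase, and Rnf141 went another way. Asah1 averaged 1486 ± 72.9 in HT lithium, 1360 ± 96.1 in HT vehicle and 1523 ± 67.5 in WT vehicle (n = 10 per group, SD). HT lithium minus HT vehicle was 0.13 (adjusted p = 0.00839), HT vehicle minus WT vehicle -0.17 (adjusted p = 0.0394), and HT lithium minus WT vehicle -0.035 with a 95% confidence interval of -0.10 to 0.034. Rnf141 averaged 2340 ± 124 in HT lithium, 2110 ± 117 in HT vehicle and 2371 ± 131 in WT vehicle. Its differences were 0.15 (adjusted p = 0.00305), -0.17 (adjusted p = 0.0394) and -0.019 (95% confidence interval -0.089 to 0.052), in the same order. Both passed in opposite directions in comparisons that share the HT vehicle libraries. They were chosen for passing in HT vehicle against WT vehicle, so their opposite sign against HT vehicle is no independent evidence of a change with lithium. The lowest olfactory bulb level in HT vehicle was 7.44, whereas 3 libraries of HT lithium and 3 of WT vehicle lay under 6. Matn2, a matrix protein, lay at 0.17 in HT lithium against WT vehicle (adjusted p = 0.146), with -0.19 against HT vehicle (adjusted p = 0.0709).

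**Figure D4:**
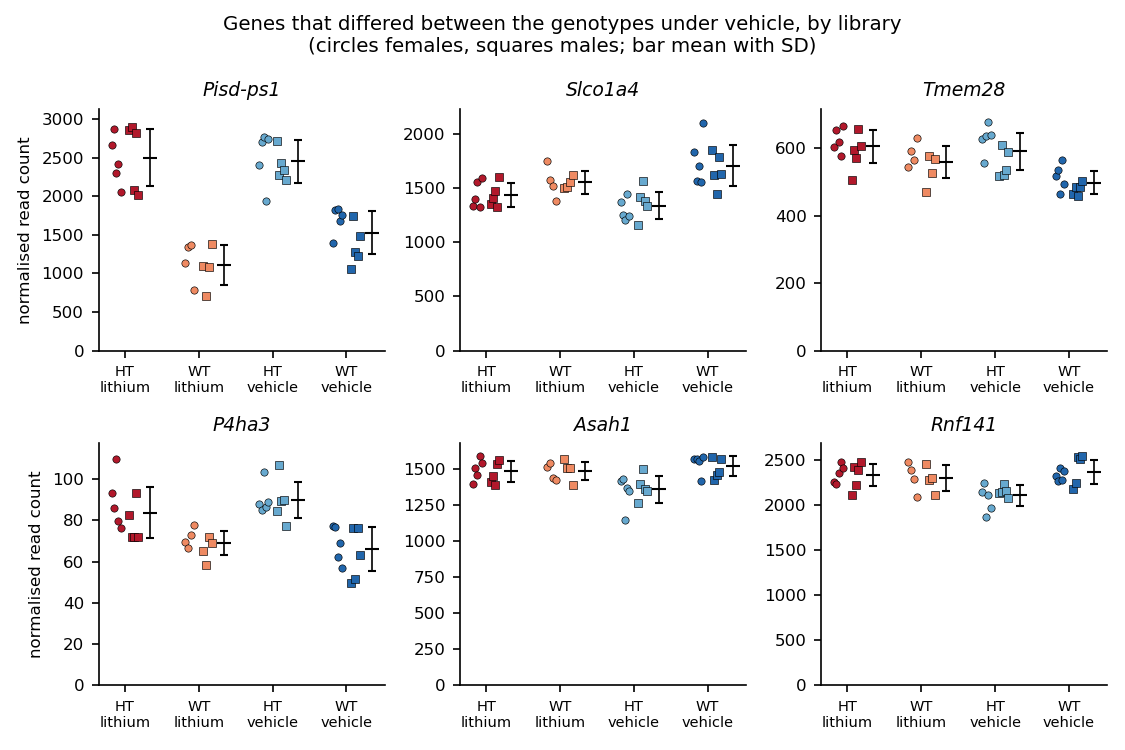
Normalised read count (y axis, from 0) per library of 6 genes that passed between HT vehicle and WT vehicle, in HT lithium, WT lithium, HT vehicle and WT vehicle; circles are females, squares males, bars mean with SD. Pisd-ps1 is high in both HT groups (2498 in HT lithium and 2451 in HT vehicle on average) and low in both WT groups (1112 in WT lithium and 1528 in WT vehicle), while Asah1 and Rnf141 are lowest in HT vehicle.

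Besides Pisd-ps1, Pisd-ps2 and Col5a1, the 10 genes that passed between HT lithium and WT lithium include Rpn2, a subunit of the enzyme that adds sugar chains in the ER, and Fermt2, an activator of integrins. Rpn2 had 2085 to 2242 normalised counts in HT lithium and 2226 to 2435 in WT vehicle, and fell by 0.11 (adjusted p = 0.00119). Fermt2 fell by 0.14 (adjusted p = 0.0162) and L3mbtl4, of a family of readers of methylated histones, rose by 0.32 (adjusted p = 0.0165) against WT vehicle. Against WT lithium the 3 stood at -0.11, -0.19 and 0.45, each close to the threshold (limma, adjusted p = 0.0485). In HT vehicle minus WT vehicle they stood at 0.00038, -0.066 and -0.13, and none passed. They were chosen for passing against WT lithium with the same HT lithium libraries, so passing against WT vehicle is no independent evidence. Stil, which acts in centriole duplication, and Neurog2, a proneural transcription factor, passed against WT lithium (0.85 and 0.78) and not against WT vehicle (0.43 and -0.24). Against WT lithium the adjusted p was 0.0485 for both, and counts were low. Stil averaged 18.89 in HT lithium and 11.07 in WT lithium, and Neurog2 29.75 and 16.73. In WT lithium minus WT vehicle Neurog2 stood at -1.02 (limma, adjusted p = 9.98e-05). A predicted gene and a transcript with no protein make up the 10, and the count ranged from 2 to 32 across the settings tried.

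Matrix and surface genes had 5 of 31 members risen and 0 fallen (16.1% passed, against 8.14% of all genes tested). Their median was 0.094. Npnt, the matrix protein nephronectin, had 1863 to 2323 (median 2052) in HT lithium and 1436 to 1716 (median 1546) in WT vehicle, and rose by 0.37 (SE 0.0653, adjusted p = 1.62e-04). Col5a1, a fibrillar collagen chain, rose by 0.39 (adjusted p = 8.87e-04) and also passed against WT lithium (0.38, adjusted p = 0.0485). In HT lithium against WT vehicle the matrix protein Postn rose by 0.34 and the thrombin receptor F2r by 0.26. The list was compiled with earlier results of these data known, so its direction is no independent evidence, and 3 members rose without the low-bulb libraries.

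Of 18 genes of the KMT5 family and of histone H4 lysine 20 methylation, 2 rose and 1 fell. The share that passed was 16.7%, against 8.14% of all genes tested. Kmt5a, which adds the first methyl group, rose by 0.12 (adjusted p = 0.0416), the demethylase Kdm7a rose by 0.18 (adjusted p = 0.0247), and Suv39h1, a methyltransferase of histone H3 lysine 9, fell by 0.14 (adjusted p = 0.0292). None of the 3 passed without the low-bulb libraries, and with the exon length slope 1 of the list rose and 0 fell. No member rose without HT lithium female 4, female 5, male 4 or male 5 or WT vehicle female 1 or female 4, and none fell without HT lithium female 2 or male 5 or WT vehicle female 4, male 3 or male 5. Over all settings 0 to 4 rose. Among 39 other lysine methyltransferases and demethylases 5 rose and 1 fell (median 0.049), with Kmt2d at 0.27, Dot1l at 0.22 and Kdm1a at -0.082. Here 15.4% passed, against 8.14% of all genes tested. That list's count depended on single libraries: 0 rose without WT vehicle female 4 or male 5, 2 without WT vehicle female 1, and 3 without HT lithium female 3, male 2 or male 5, while 0 to 1 fell with 1 library left out. It was 0 rises without the low-bulb libraries, and 1 rise and 3 falls with the exon length slope in the model.

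**Figure D5:**
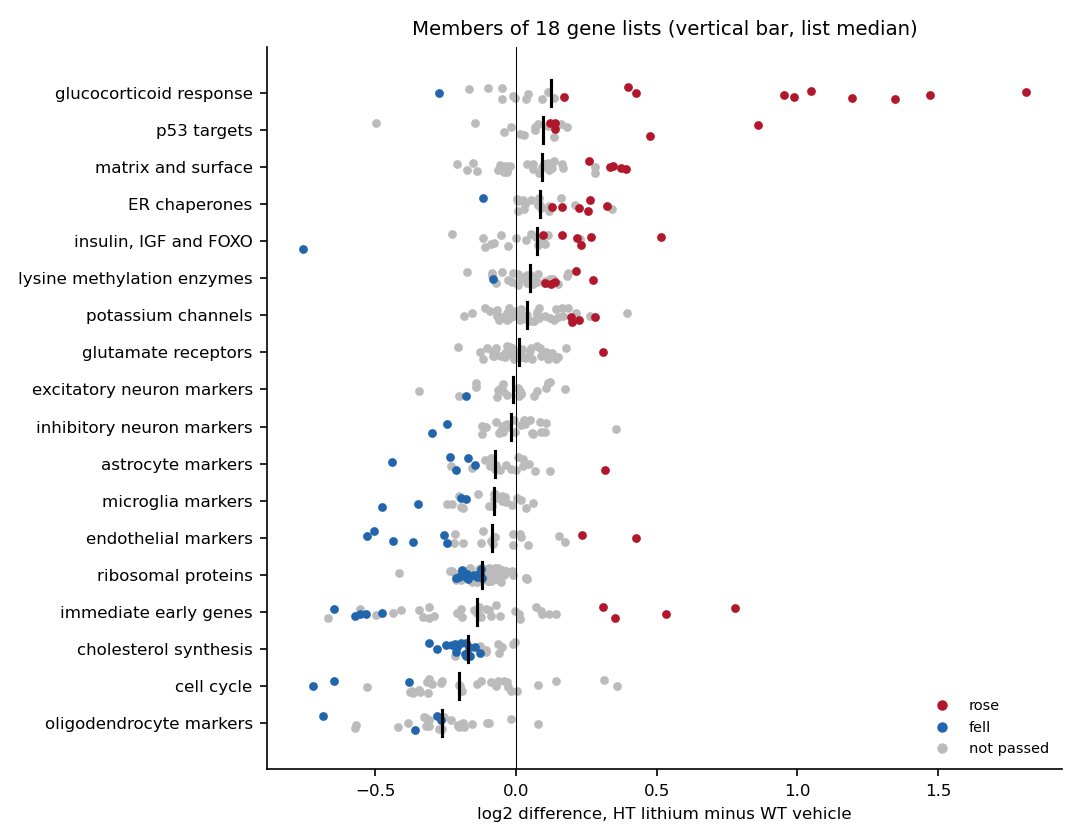
Log2 difference between HT lithium and WT vehicle (x axis) of the members of 18 gene lists (y axis, ordered by median); red members rose, blue fell, grey did not pass, and black bars are list medians. Glucocorticoid-responsive genes extend farthest to the right, all 26 cholesterol genes lie at or left of 0, and the oligodendrocyte markers have the lowest median, -0.26.

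Vascular markers changed in both directions. Of 24 endothelial markers 2 rose and 6 fell (33.3% passed, against 8.14% of all genes tested), with a median of -0.084. Their summed count was 32400 to 34910 in HT lithium and 30630 to 39890 in WT vehicle. Slc2a1, the glucose transporter of the blood-brain barrier, had 3174 to 4333 (median 4021) in HT lithium and 2283 to 3239 (median 2917) in WT vehicle, and rose by 0.43 (SE 0.0803, adjusted p = 4.00e-04). Mfsd2a, which carries lysolipids across the barrier, rose by 0.23. In contrast the receptors Kdr and Tek, of vascular endothelial growth factor and angiopoietins, fell by 0.53 (adjusted p = 0.00201) and 0.44 (adjusted p = 2.16e-04), and Aplnr, the apelin receptor, fell by 0.82. Without the low-bulb libraries 1 endothelial marker rose and 4 fell, and with the exon length slope in the model 3 rose and 4 fell. Of 16 mural and fibroblast markers only Pdgfrb, a pericyte receptor, passed (-0.22, adjusted p = 0.00472), a share of 6.25% against 8.14% of all genes tested.

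Glial markers lay mostly below 0. Of 25 microglial markers 4 fell and none rose (16% passed, against 8.14% of all genes tested, median -0.079). P2ry13 and P2ry12, purine receptors of microglia, fell by 0.48 (adjusted p = 3.53e-05) and 0.35 (adjusted p = 0.00154), and Cx3cr1, the fractalkine receptor, by 0.20. The summed microglial count was 17460 to 18910 in HT lithium and 17670 to 23290 in WT vehicle. The number fallen was 2 without the low-bulb libraries, with the exon length slope in the model or without WT vehicle male 5, 8 without WT vehicle male 3, and 7 by DESeq2 on recovered reads.

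The 24 astrocyte markers gave 1 rise and 5 falls (median -0.073, summed count 244600 to 268900 in HT lithium and 253100 to 281200 in WT vehicle). Thus 25% passed, against 8.14% of all genes tested. Sox9, the transcription factor of astrocytes, had 348 to 528 (median 469) in HT lithium and 493 to 745 (median 584) in WT vehicle, and fell by 0.44 (SE 0.0735, adjusted p = 7.50e-05). Apoe, the main lipoprotein of the brain, fell by 0.21 and Slc7a10, an amino acid transporter, by 0.23. Gjb6, a connexin of astrocyte gap junctions, rose by 0.32 (adjusted p = 0.00543). Without the low-bulb libraries 1 rose and 2 fell, and with the exon length slope in the model or after quantile normalisation 1 rose and 3 fell.

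Oligodendrocyte and myelin markers had the lowest median of the lists drawn, -0.26, with 1 of 28 members above 0. Yet only 4 fell (14.3% passed, against 8.14% of all genes tested). Those were Ppp1r14a (-0.69), Gpr37 (-0.36), Sox10 (-0.28) and Olig2 (-0.27), the last 2 being transcription factors of the lineage. The summed count was 93890 to 136800 in HT lithium and 73740 to 234000 in WT vehicle, so WT vehicle libraries spanned the whole HT lithium range. The number fallen was 1 without WT vehicle female 5, 2 without HT lithium female 2, female 5 or male 5 or WT vehicle female 4, male 2, male 4 or male 5, 7 without WT vehicle female 2, and 9 without WT vehicle male 1. It was 2 without the low-bulb libraries and 2 by limma on the 54 libraries with recovered reads. Of 11 markers of oligodendrocyte precursors none passed (median 0.013).

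Of 22 excitatory neuron markers 1 passed (4.55%) and of 26 inhibitory neuron markers 2 passed (7.69%), against 8.14% of all genes tested, and none of them rose. The excitatory marker Rorb fell (-0.18), as did the inhibitory markers Htr3a (-0.25) and Crh (-0.30), and none of these 3 passed without the low-bulb libraries. The medians were -0.011 for excitatory and -0.018 for inhibitory markers. Over all settings 0 to 1 excitatory marker fell, and 0 to 1 inhibitory marker rose and 0 to 2 fell, with no excitatory fall and 1 inhibitory marker each way under the exon length slope. Of 39 genes of glutamate receptors and their scaffold 1 rose and 0 fell (2.56% passed). With the exon length slope 0 rose and 1 fell, and with 1 library left out 0 to 2 rose. Of 17 GABA receptor genes none passed, and 1 fell with the exon length slope or the olfactory bulb level in the model or without WT vehicle male 1. Of 50 potassium channel genes 4 rose and 0 fell, so 8% passed, near the 8.14% of all genes tested. Among those 4 were Kcnn2 (0.28, adjusted p = 2.20e-04), a calcium-activated channel, Kcnk9 (0.23) and Kcnt1 (0.20). That count was 1 without the low-bulb libraries and 1 with the exon length slope in the model, and with the olfactory bulb level 5 rose and 2 fell. It was 2 without HT lithium female 4, female 5, male 1 or male 5, and 2 without WT vehicle female 1, 4 or 5 or male 4 or 5.

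Ribosomal protein genes lay slightly below 0 almost throughout. Of 79 tested none rose and 13 fell (16.5% passed, against 8.14% of all genes tested). Only 3 lay above 0, and the median was -0.12. Rps26 fell by 0.19 (adjusted p = 0.00998), Rpl13 by 0.17 and Rpl4 by 0.13. With the exon length slope in the model 1 fell, at a median of -0.057, and without the low-bulb libraries 3 fell. The count was 6 after quantile normalisation, 8 with the replicate number as a block, 25 with the olfactory bulb level and 25 by DESeq2 on recovered reads. Single libraries moved the count from 2 (without WT vehicle female 1) to 30 (without WT vehicle female 3). It was 3 without WT vehicle female 4, 5 without HT lithium female 4, 6 without HT lithium male 1 or male 5 or WT vehicle male 5, 7 without WT vehicle male 2, and 22 without WT vehicle female 2. Of the 15 mitochondrially encoded genes none passed, and they took 7.66% ± 0.746 of reads in HT lithium and 7.90% ± 0.700 in WT vehicle (n = 10 per group, SD; permutation p = 0.476).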

How the data were processed

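RNA of prefrontal cortex was sequenced after a stranded poly(A) library kit, per the labels' protocols. The deposited values are gene counts that the authors divided by 1 size factor per library (unit: signal), made with Salmon 0.11.2, R 3.6.0 and DESeq2 1.19.11 on GRCm38, per the submitters' processing notes. The annotation release is not given in the sources used here. Gene symbols and coordinates came from GENCODE M21 and promoter windows from RefSeq.

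The table held 18088 genes, of which 1419 averaged under 10 and were left out. In R 4.3.3, limma 3.58.1 with a variance trend was fitted to log2(value + 1) of all 58 libraries in 12 groups of genotype, treatment and sex, and p-values were Benjamini-Hochberg adjusted over 16669 genes. All groups thus share 1 estimate of the spread. Whole reads were recovered for 100% of values within a tolerance of 0.01 of a step in 54 libraries, on which edgeR 4.0.16 called 1286 genes and DESeq2 1.42.0 called 1469, as alternatives. The step could not be told from 1 in 4 libraries, HT lithium male 3 among them, which entered the main fit and not these tests. Permutation tests exchanged libraries within sex in 1e+05 resamples, two-sided. The compared libraries other than HT lithium male 3 held 23.5 to 31.5 M recovered reads. Squared differences between replicates averaged at least 3.47 times the sampling variance, so none was counted as a copy. The fit was also tested on simulated data.

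Named genes are Kmt5b, the 15 of smallest p and the 5 of largest difference each way, up to 15 each way without overlap, up to 6 of smallest p per gene list, and the Pisd copies. Nr3c1, Gsk3b, Pdk4, Prkcd, Syn1, Bpgm, the low-bulb markers and the genes that passed between HT and WT under vehicle or lithium were added after their values were seen. The 40 gene lists, the members and the motifs were chosen with earlier results of these data known. Alternatives covered scaling, variance trend, filters on low values, pseudocount, samples in the fit, replicate block, olfactory bulb level, exon length slope, test, and each single library left out. Some members of the lists are counted and not reported by name here. The removal of low-bulb libraries and limma on 54 libraries were added after the data had been seen.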

Additional observations from a re-analysis of the deposited data

Results flagged for a closer look

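Single libraries stood apart from the other 9 of their group in 11 of the 290 sets of a named gene and a group that were examined, by Dixon's criterion at the 95% level, where chance flags about 1 in 20 groups. Of these, 10 were WT vehicle libraries. Male 3 was high in Fkbp5, the co-chaperone of the glucocorticoid receptor, with a normalised count of 1114, against 713 in the next WT vehicle library. The same library was high in Igfbp3 (772, next 576) and in Ctnnb1 (20950, next 18900). Without it the log2 differences were 1.15 for Fkbp5, 0.57 for Igfbp3 and -0.20 for Ctnnb1, and all 3 passed.

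WT vehicle male 1 was high in Slc16a1, the lactate transporter (2476, next 2092), and in Tek, the angiopoietin receptor (712, next 577), and low in Nub1 (2314, next 2562). Male 4 of the same group was high in Gfpt2 (308, next 244) and low in the ER factor Manf (851, next 945). Male 5 was low in Plcxd2 (2529, next 3135). Female 5 was high in Gpr37, a receptor of oligodendrocytes (1146, next 807). Without female 5, Gpr37 did not pass (-0.28, adjusted p = 0.114). In HT lithium, female 4 was low in Slc7a10, an amino acid transporter of astrocytes (460.5, next 555).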

How the results depend on the processing

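The 1357 genes that differed between HT lithium and WT vehicle numbered 1399 after quantile normalisation, 1330 without the variance trend, 1333 without the filter, 1237 at a mean of at least 100, 1359 and 1373 with pseudocounts of 0.5 and 10, 1534 with the compared groups fitted alone, 1863 with the bulb level and 926 with the exon length slope in the model, and, on the 54 libraries with recovered reads, 1366 (limma), 1286 (edgeR) and 1469 (DESeq2). Leaving out the low-bulb libraries of all groups gave 674, with 7 libraries on each side. Leaving out 1 library gave 892 (WT vehicle female 4) to 1622 (WT vehicle female 2). The cause of these shifts was not tested. With the replicate number as a block (replicate block) the count was 1200. The labels do not say that a number marks a shared litter or day, and of 10 same-numbered pairs, whose deviations correlated at -0.265 to 0.257, 2 libraries correlated best with their own number.

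HT vehicle against WT vehicle, with 8 genes, gave 4 after quantile normalisation and with the bulb level in the model, 1 with these groups alone, and 2 with the replicate block and without low-bulb libraries. HT lithium against WT lithium, with 10, gave 2 after quantile normalisation, at a mean of at least 100 and with the block, 3 without the filter, 4 with these groups alone, 32 with the bulb level, and 5 without low-bulb libraries. WT lithium against WT vehicle, with 556, gave 229 with these groups alone and 310 without low-bulb libraries. No gene differed between the sexes in any fit of that difference. Kmt5b passed with the bulb level in the model (0.1011) and lay between 0.09378 and 0.1321 with 1 library left out. Asah1 (0.001671) and Rnf141 (0.002711), which had not passed, changed sign without low-bulb libraries. The alternatives were run on 145 of the named genes, Kmt5b among them, and not on every gene named. All 140 of these that passed kept their direction under every alternative that gave them a value. Of the 140, 98 passed whichever library was left out. The calls that most often failed with 1 library left out were those of Rorb, Kmt5a, Bpnt1, Impa1, Clu, Laptm5, Clock, Sox10, Gpr37 and Dbp. Without low-bulb libraries 48 named genes no longer passed, among them Manf, Canx, Dnajb11, Herpud1, Dusp4, Klf4, Apoe, Mdm2 and Kmt2d. With the exon length slope 35 did not, among them Egr4, Ier2, Homer1, Apoe, Rps26, Mdm2 and Kmt2d.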

Other observations

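Clock genes moved in both directions: of 19 tested, Per2, a repressor of the clock that glucocorticoids also induce, rose by 0.44 (SE 0.0953, adjusted p = 0.00192) and Clock by 0.15, whereas Dbp, an output of the clock, fell by 0.21 and Rorb by 0.18. Of the list 21.1% passed, against 8.14% of all genes tested. Per2 had 1296 to 1648 normalised counts in HT lithium and 718 to 1536 in WT vehicle. Without the low-bulb libraries 1 rose and 1 fell, and with the exon length slope in the model 1 rose and 0 fell. Over all settings, each single library left out among them, 1 to 3 rose and 0 to 3 fell. Of 23 genes of the integrated stress response, Atf4, its central transcription factor, rose by 0.14 (adjusted p = 0.0315), while Cebpb fell by 0.36 and Aars, an aminoacyl-tRNA synthetase, by 0.10. That list had 13% of its genes pass, against 8.14% of all genes tested. The list had 0 rises and 1 fall without the low-bulb libraries, and 2 rises and 0 falls with the exon length slope. It had 0 rises on the 54 libraries with recovered reads and without HT lithium female 2, female 5, male 2 or male 3 or WT vehicle female 3 or female 5. Its falls were 0 without WT vehicle female 4 and 1 without HT lithium female 5 or male 2 or WT vehicle male 5. Of 26 cytosolic heat shock genes, Bag4 (-0.16) and Stip1 (-0.12), co-chaperones, fell (7.69%, against 8.14% of all genes tested that passed). Neither passed without the low-bulb libraries. The heat shock list had 1 fall without WT vehicle female 4 or male 2.

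Protein turnover and respiration genes lay slightly below 0. Of 35 proteasome genes none rose and 4 fell (11.4% passed, against 8.14% of all genes tested). Psme1 (-0.23), an activator cap subunit, and Psma6 (-0.20) were among the falls, and the list median was -0.067. That count was 2 without the low-bulb libraries and 1 with the exon length slope. It was 2 without HT lithium female 2, female 3, male 2, male 4 or male 5 or WT vehicle male 2 or male 5, and 1 without WT vehicle female 1 or female 4. Of 72 nuclear genes of oxidative phosphorylation, Ndufa10 (-0.13), of complex I, alone fell (1.39% passed, against 8.14% of all genes tested). The median was -0.056, and 1 to 5 fell over all settings.

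Among genes of transmitter release and systems, Syn1 (-0.19), a synaptic vesicle protein, was the only presynaptic gene of 31 to pass, and Htr3a (-0.25), an ionotropic serotonin receptor, the only one of 23 genes of serotonin and other monoamines. These shares were 3.23% and 4.35%, below the 8.14% of all genes tested that passed. Syn1 did not pass without the low-bulb libraries, with the exon length slope or the replicate block, or without the variance trend or the filter, and over all settings 0 to 1 presynaptic gene rose and 0 to 3 fell. No monoamine gene fell without the low-bulb libraries, HT lithium female 1 or female 5 or WT vehicle female 4. None of 17 cholinergic genes and none of 11 neurotrophin genes passed, with medians of 0.088 and 0.026. Among markers of neighbouring tissue, none of 15 for olfactory bulb, 14 for striatum and 6 for choroid plexus and ependyma passed. Prkcd (0.31) rose of 10 thalamic markers (10%), and Bpgm (-0.14) fell of 8 blood markers (12.5%), against 8.14% of all genes tested that passed. Neither passed without the low-bulb libraries, and Bpgm did not pass with the exon length slope or without HT lithium female 2 or WT vehicle female 1, female 4 or male 5. The choroid plexus and ependyma markers had a median of 0.29 and summed to 223 to 496 in HT lithium and 173 to 476 in WT vehicle.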
